A study of Mus musculus with 2 samples.

Results

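Peaks of open chromatin that lie far from any gene start were described in single nuclei of mouse embryos at embryonic day 7.0. A peak was a member when it lay on an autosome and its nearest edge was 300 kb or more from every position listed for the genes in the deposited feature table. The rule found 4296 peaks among the 224218 autosomal peaks, or 1.92%, and the table held 229480 peaks in all. No readout entered the rule, so openness and cell class were free to differ from those of the 219922 nearer autosomal peaks.

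Each nucleus had been read for both its RNA and its open chromatin (a single-nucleus multiome), and the series held 1 RNA library and 1 accessibility library of 1 pool of embryos. No treatment, genotype contrast or time series was included, so the comparisons were between classes of nuclei and between classes of peaks. The labels conflicted: E7.0 embryos stood in the title, protocol and age, but goblet cells, parts of the gut and the strain RedMUC298trTg in the entries for cell type, tissue and strain. In the RNA, 8 epiblast markers summed to 1618 RNA CPM (UMIs scaled to a total of 1000000) and 11 visceral endoderm markers to 4140, against 1.67 for 8 goblet and intestinal markers, so the embryonic reading was used. With 1 library per assay there was no replicate of any group, and the intervals given for shares, medians and folds cover counting or sampling error only. The pool was not split by embryo, and all peaks were read from the same nuclei.

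Enhancers, the stretches of DNA that transcription factors bind to raise transcription of a gene elsewhere on the chromosome, can act over long distances. Many such elements of developmental regulators lie in gene deserts, long intervals without coding genes, while others lie in the introns of very long genes. At embryonic day 7.0 the epiblast, which forms the embryo proper, is giving rise to mesoderm and definitive endoderm through the primitive streak, beside the visceral endoderm and the extraembryonic ectoderm, which contribute to the yolk sac and the placenta.

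The label of gene desert held for most members but not for all. The position columns of the deposited table listed gene starts, with the lowest and the highest start for 12548 genes that have several, so the body of a long gene was not removed by the rule. In RefSeq (GRCm38.p6), 2967 members (69.1%) overlapped no gene, 1115 (26.0%) overlapped a protein-coding gene, 156 overlapped only a long noncoding RNA gene and 58 only a gene of another kind. Of the nearer peaks, 64.3% overlapped a gene. The members are therefore called start-distant peaks here.

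RefSeq placed a transcription start inside 21 of the 4296 members, and the sequences there are the ones that the reference tables held for members. None of the members overlapped a microRNA hairpin. The 21 members carried 23 start windows of 300 bases, of which 2 belonged to the long coding genes Nckap5 and Magi2, whose starts in the deposited table lie elsewhere, and most others belonged to predicted long noncoding RNA genes. These members were open in a median of 1.59% of nuclei (0.445% to 8.10%), against 0.852% of nuclei for the other members. The 250 bases before 5 of these starts are shown on the strand of the gene, 5′ to 3′, because they cover the most open member with a start and members highest in different classes. Capitals mark each CG dinucleotide, the site of DNA methylation. CG dinucleotides are dense at many promoters.
Gm32810: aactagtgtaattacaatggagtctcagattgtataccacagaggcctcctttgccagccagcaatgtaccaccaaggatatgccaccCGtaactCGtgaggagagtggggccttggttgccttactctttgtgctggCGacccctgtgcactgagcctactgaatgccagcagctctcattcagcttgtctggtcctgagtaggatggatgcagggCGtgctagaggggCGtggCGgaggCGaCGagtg
Nckap5: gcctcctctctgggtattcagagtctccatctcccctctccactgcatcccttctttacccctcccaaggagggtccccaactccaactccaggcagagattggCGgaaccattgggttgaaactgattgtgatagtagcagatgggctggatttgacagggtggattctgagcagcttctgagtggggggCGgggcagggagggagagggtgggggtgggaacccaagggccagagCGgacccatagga
Gm40862: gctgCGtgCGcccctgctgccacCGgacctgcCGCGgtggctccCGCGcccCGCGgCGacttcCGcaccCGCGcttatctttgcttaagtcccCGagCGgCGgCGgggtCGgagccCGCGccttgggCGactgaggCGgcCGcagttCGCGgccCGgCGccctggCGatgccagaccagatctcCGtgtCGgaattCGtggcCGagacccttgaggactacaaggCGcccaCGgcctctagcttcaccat
Gm32237: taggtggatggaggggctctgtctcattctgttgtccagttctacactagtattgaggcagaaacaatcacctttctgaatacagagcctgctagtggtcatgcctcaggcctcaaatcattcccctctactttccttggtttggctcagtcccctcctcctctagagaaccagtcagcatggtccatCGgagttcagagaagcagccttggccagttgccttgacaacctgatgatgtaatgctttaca
Gm33197: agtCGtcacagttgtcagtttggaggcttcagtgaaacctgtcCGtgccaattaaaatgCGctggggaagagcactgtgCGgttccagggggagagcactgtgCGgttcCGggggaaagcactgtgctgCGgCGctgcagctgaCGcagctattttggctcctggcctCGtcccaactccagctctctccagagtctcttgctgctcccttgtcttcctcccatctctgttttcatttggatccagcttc

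The first, for Gm32810 at chr1:112416919-112417168 (mm10, minus strand), lay in the peak chr1:112416367-112417260. This peak was open in 8.10% of nuclei and reached 18.0 CPM (peak counts scaled to a total of 1000000 per class) in epiblast-like nuclei, against 1.25 CPM in visceral endoderm-like nuclei. The window of Nckap5 at chr1:126492928-126493177 (minus strand) lay in a peak open in 7.28% of nuclei, which was 1.63-fold higher in extraembryonic mesoderm-like nuclei than elsewhere. The window of Gm40862 at chr12:23634393-23634642 (minus strand) held 41 CG dinucleotides over its 300 bases, and its peak was 4.99-fold higher in extraembryonic ectoderm-like nuclei than in all others. By contrast the window of Gm32237 at chr3:56698172-56698421 (plus strand) held 1, and its peak was 6.23-fold higher in epiblast-like nuclei. The window of Gm33197 at chr13:57246456-57246705 (minus strand) held 10, and its peak was 5.78-fold higher in visceral endoderm-like nuclei.

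Over the 23 windows the median was 4 CG dinucleotides and 53.0% G or C, against 7 and 53.0% over all 31396 RefSeq start windows of the same length. The letters GGGCGG (the GC box), searched on both strands, stood in 11 of the 23 windows and in 36.0% of all windows. These matches describe the letters only.

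The members were spread over all 19 autosomes. Their share of a chromosome's peaks ranged from 0.981% on chromosome 9 to 2.97% on chromosome 14, and chromosome 1 held the most, 447. The median member lay 416 kb from the nearest start, with quartiles of 346 and 556 kb. The distance was 500 kb or more for 1392 members and 1 Mb or more for 96. For 7 members, a start lay on 1 side only.

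The farthest members lay in the gap between Gm42761 and Adgrl3 (a latrophilin adhesion receptor) on chromosome 5. The peak chr5:79213624-79214475 was 1728 kb from the nearest start, was open in 1.04% of nuclei and was 4.80-fold (3.28 to 7.17) higher in epiblast-like nuclei than in all others. The next farthest, chr5:79186622-79187883 at 1701 kb, was 2.05-fold (1.38 to 3.05) higher there, and the third, chr5:79154286-79155200 at 1669 kb, was open in 0.445% of nuclei on 58 fragments. The same gap held a member at chr5:77871105-77872009 that was restricted to visceral endoderm-like nuclei, described with the other restricted peaks.

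The peaks nearest to the 300 kb limit were taken as a description of it. The 3 members just inside, at chr6:79388230-79388824, chr1:35350377-35351274 and chr11:93584864-93585714, were open in 1.23%, 1.23% and 1.34% of nuclei. The 3 peaks just outside, at chr6:33549084-33549990, chr18:48362944-48363866 and chr5:6049171-6050018, were open in 0.828%, 0.922% and 0.672%.

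Peaks became sparser and less open with distance. In territory 300 kb or more from a start there were 19.4 peaks per Mb over 221 Mb, against 45.6 at 100 to 300 kb, 76.0 at 50 to 100 kb, 106 at 10 to 50 kb, 127 at 1 to 10 kb and 369 under 1 kb. Peaks were placed by their nearest edge and territory was measured in bases, so peak width raised the value under 1 kb. A member was open, with at least 1 count, in a median of 0.852% of the 12796 nuclei (0.844% to 0.867%), or 109 nuclei, and the middle 50% of members lay between 0.625% and 1.35%. The median was 10.5% under 1 kb, 1.56% at 1 to 10 kb, 1.24% at 10 to 50 kb, 1.07% at 50 to 100 kb and 0.953% at 100 to 300 kb. The step at 300 kb was small beside the step at promoters. Against all nearer peaks, whose median was 1.38% of nuclei, the ratio was 0.619. Peak width did not follow this order, with a median of 885 bases for members and of 864 to 876 bases in the other distance ranges.

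**Figure D1:**
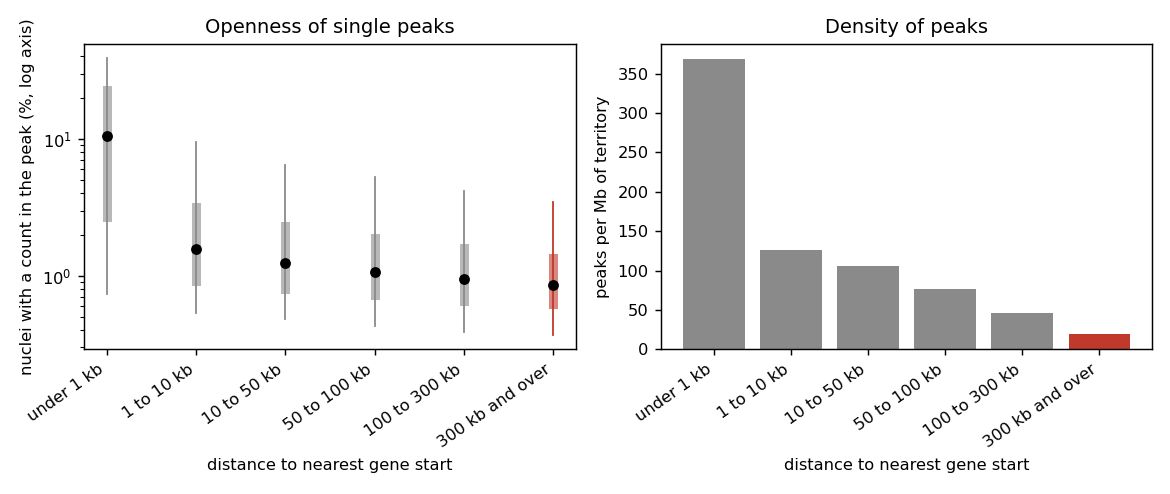
Left, percent of nuclei with a count in a peak (log axis) by distance to the nearest gene start; points are medians over peaks, thick bars the quartiles and thin bars the 5th to 95th percentiles. Right, peaks per Mb of territory in the same ranges; members (300 kb and over, red) were the sparsest at 19.4 per Mb and had the lowest median openness, 0.852%.

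A few members were open in many nuclei. In all, 12 members (0.279%) were open in 10% or more of nuclei and 102 (2.37%) in 5% or more, against 51.4% and 65.7% of the peaks under 1 kb. The most open was chr12:21784129-21785020, inside the noncoding gene 6030426L16Rik and 366 kb from Gm4419, which had counts in 20.5% of nuclei. Its level was 42.3 CPM in extraembryonic ectoderm-like nuclei and 21.8 to 30.3 CPM in the other 7 classes. The second, chr12:17992392-17993270, lay 302 kb from Hpcal1 (a neuronal calcium sensor) inside Gm4983, was open in 16.9% of nuclei and ranged from 15.5 to 28.5 CPM over the classes. The third, chr18:85697642-85698548, lay in no gene, 626 kb from Gm50370 and 696 kb from Neto1 (an auxiliary subunit of kainate receptors), and was open in 15.2% of nuclei. It was highest in anterior streak-like nuclei at 37.3 CPM and lowest in visceral endoderm-like nuclei at 13.1 CPM. All 3 were open in every class.

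Classes of nuclei were rebuilt from the RNA alone, by clustering, and named "-like" from marker genes, so the peaks took no part in naming them. Of 15341 barcodes, 12796 nuclei were kept, and 8 classes of at least 100 nuclei held 10516 of them. These were epiblast-like (4305 nuclei), visceral endoderm-like (1473), embryonic mesoderm-like (1405), extraembryonic ectoderm-like (1227), anterior streak, node and definitive endoderm-like (938, anterior streak-like below), primitive streak-like (463), extraembryonic mesoderm-like (418) and haemato-endothelial progenitor-like (287). Another 32 nuclei were parietal endoderm-like, and 2248 nuclei in 7 clusters stayed unnamed. Median peak counts per nucleus lay between 16672 and 21781 in the 8 classes and at 10404 in the unnamed nuclei.

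Start-distant peaks took a larger share of the open chromatin of the embryo proper than of the extraembryonic layers. They held 0.610% of all peak counts. The share was 0.765% (0.759% to 0.770%, exact binomial intervals on estimated fragments) in anterior streak-like nuclei and 0.749% (0.746% to 0.751%) in epiblast-like nuclei. It was 0.626% in primitive streak-like and 0.614% in embryonic mesoderm-like nuclei. The extraembryonic classes were lower, at 0.499% in extraembryonic mesoderm-like, 0.468% in extraembryonic ectoderm-like and 0.451% in haemato-endothelial progenitor-like nuclei, and visceral endoderm-like nuclei were lowest at 0.363% (0.359% to 0.366%). Each embryonic class was above each extraembryonic class in all 12 settings of the analysis, among the classes named there (at Leiden resolution 0.5 and with the stricter depth filter, not all 8 were). The order within these groups was not fixed, although the counting intervals of neighbours did not meet: 5 of the 7 neighbouring pairs changed places in some setting. Anterior streak-like fell below epiblast-like nuclei in 6 of 11 alternatives, for example at 0.760% against 0.779% with a stricter depth filter. Extraembryonic ectoderm-like fell below haemato-endothelial progenitor-like nuclei in 3, primitive streak-like below embryonic mesoderm-like in 2, and extraembryonic mesoderm-like below extraembryonic ectoderm-like in 2. The 32 parietal endoderm-like nuclei were at 0.414% (0.391% to 0.438%). All classes were read from 1 peak list, from which peaks open in a small class alone may be missing. Epiblast-like nuclei were the largest class. The part of this shared list in the shares, here and by distance, was not tested.

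**Figure D2:**
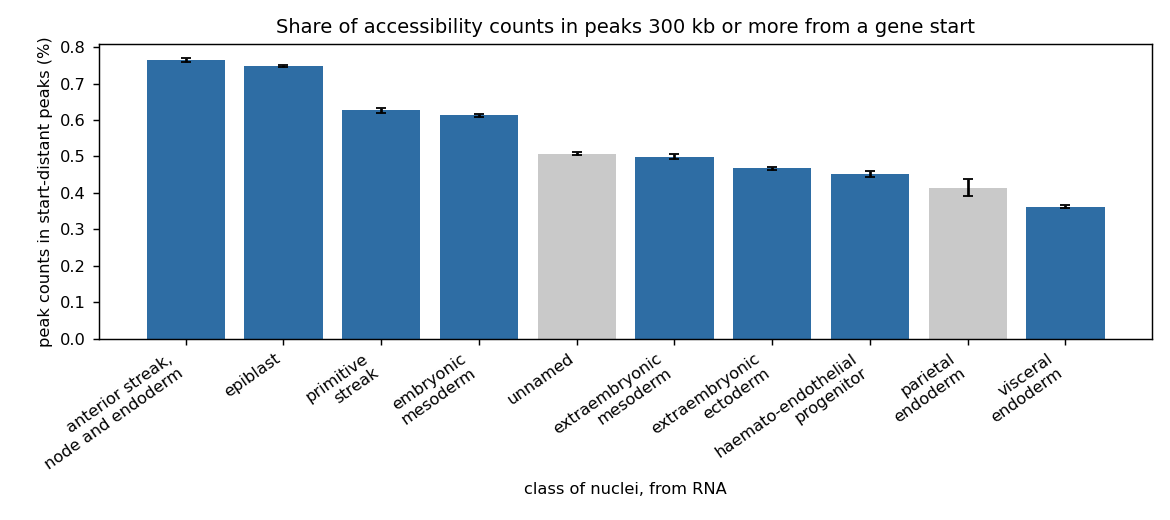
Percent of each class's peak counts that fell in start-distant peaks; bars are pooled shares over the nuclei of a class and whiskers are exact binomial intervals, which cover counting error only. Grey bars are the unnamed nuclei and the 32 parietal endoderm-like nuclei; the share ran from 0.765% in anterior streak-like to 0.363% in visceral endoderm-like nuclei.

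The share in epiblast-like nuclei was 2.07 times (2.05 to 2.09) that in visceral endoderm-like nuclei. A mean epiblast-like nucleus had counts in 70.9 members, an anterior streak-like nucleus in 71.7, an extraembryonic ectoderm-like nucleus in 39.0 and a visceral endoderm-like nucleus in 31.1. Per nucleus, the middle 50% of shares were 0.606% to 0.882% in epiblast-like and 0.272% to 0.438% in visceral endoderm-like nuclei, so these ranges did not meet. Epiblast-like nuclei were above visceral endoderm-like nuclei on 19 of 19 autosomes, by 1.55 to 2.98 times. Of the 4296 members, 3625 were lower and 671 higher in visceral endoderm-like than in epiblast-like nuclei. The share that was lower was 84.4% of members, against 64.8% of nearer peaks (142443 of 219922), 65.9% of nearer peaks weighted to the members' mix of fragment totals and 76.0% of peaks at 100 to 300 kb. The 4 epiblast-like clusters were at 0.685%, 0.767%, 0.777% and 0.821%, and the 2 visceral endoderm-like clusters at 0.355% and 0.376%. An unnamed cluster of 732 nuclei with all 11 visceral endoderm markers raised, but with the anterior streak list close behind (mean log2 difference of 1.51 and 1.46), was higher, at 0.561% (0.555% to 0.567%). With it added to the visceral endoderm-like nuclei, after the data were seen, their share was 0.431% and the epiblast-like share was 1.74 times that.

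Depth differed between nuclei, and its values are given for that reason. In nuclei with 10000 to 20000 peak counts, the share was 0.781% in epiblast-like, 0.811% in anterior streak-like, 0.472% in extraembryonic ectoderm-like and 0.354% in visceral endoderm-like nuclei. In nuclei with 1000 to 5000 peak counts the same 4 shares were 0.721%, 0.747%, 0.442% and 0.351%. When nuclei marked as doublets were kept, the visceral endoderm-like share was 0.474% and the ratio 1.63. With them kept, a ninth class passed the marker rule, ectoplacental cone and giant cell-like (507 nuclei, 3 markers raised), and it had the lowest share of the 9, 0.309% (0.304% to 0.315%). Haemato-endothelial progenitor-like nuclei came next, at 0.470%, just below visceral endoderm-like nuclei. In the other alternatives visceral endoderm-like nuclei were the lowest of the named classes, of which there were 6 to 8.

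The difference of visceral endoderm-like and extraembryonic ectoderm-like nuclei from epiblast-like nuclei grew with distance beyond 50 kb. For peaks under 1 kb, from 1 to 10 kb and from 10 to 50 kb, the visceral endoderm-like share was 1.04, 0.967 and 1.02 times the epiblast-like share. It was 0.894 times at 50 to 100 kb, 0.722 at 100 to 300 kb and 0.484 at 300 kb and over. Extraembryonic ectoderm-like nuclei followed the same order, with 1.03, 0.998, 1.03, 0.874, 0.731 and 0.625. Extraembryonic mesoderm-like nuclei were still above epiblast-like nuclei at 50 to 100 kb (1.03 times) and little below them at 100 to 300 kb (0.964), before 0.666 at 300 kb and over. Haemato-endothelial progenitor-like nuclei gave 0.963, 0.879 and 0.602 over the same 3 ranges. Embryonic mesoderm-like nuclei were above epiblast-like nuclei from 10 to 300 kb (1.05, 1.11 and 1.07 times) and below them only at 300 kb and over (0.819) and under 10 kb (0.967 and 0.984). Anterior streak-like nuclei went from 0.963 and 0.975 through 1.05, 1.12 and 1.15 back to 1.02 at 300 kb and over. Among the members, the epiblast-like over visceral endoderm-like ratio was 1.85 at 300 to 400 kb, 2.09 at 400 to 600 kb, 2.69 at 600 to 1000 kb and 2.72 for the 96 members at 1000 kb and over. For visceral endoderm-like nuclei, members inside and outside genes gave similar values. The share was 0.493 times the epiblast-like share in members outside genes and 0.465 times in members inside them. Other classes differed more. Outside and inside genes the values were 0.668 and 0.535 in extraembryonic ectoderm-like nuclei. They were 0.567 and 0.676 in haemato-endothelial progenitor-like nuclei and 0.642 and 0.716 in extraembryonic mesoderm-like nuclei.

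**Figure D3:**
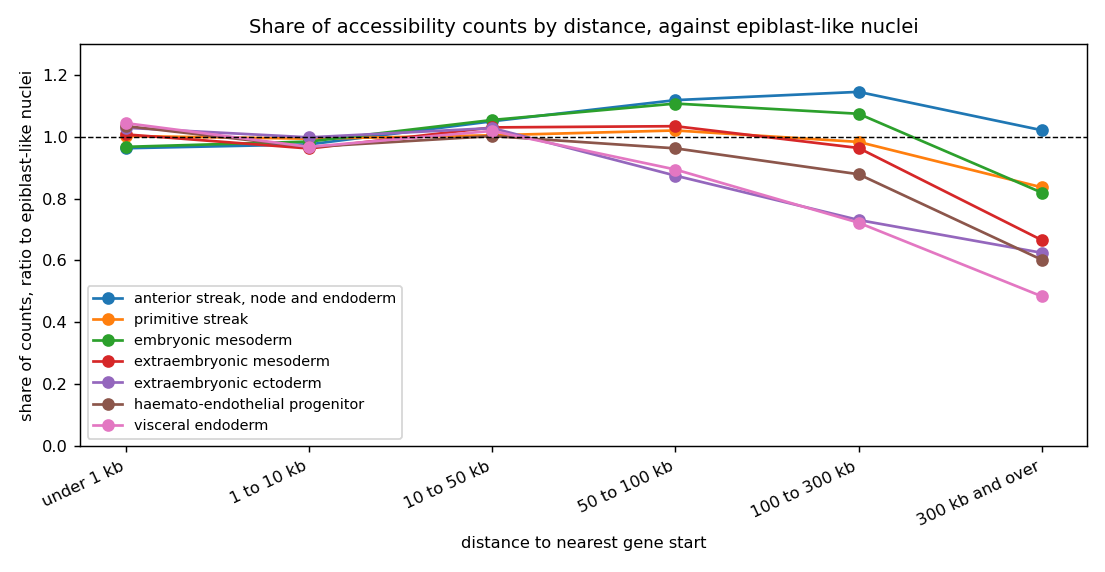
Share of peak counts in each distance range relative to the share in epiblast-like nuclei (dashed line at 1), for the other 7 classes. The lines lie near 1 up to 50 kb and spread beyond it, down to 0.484 for visceral endoderm-like nuclei at 300 kb and over.

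Start-distant peaks were more often restricted to a class than nearer peaks. A peak was called restricted when its CPM in a class was at least 3 times that in all other nuclei, on at least 10 estimated fragments in that class and 30 in all. Of the members, 4289 reached 30 fragments, and 1892 of them (44.1%, 42.6% to 45.6%) were called in at least 1 of the 8 classes. Over all autosomal peaks tested, 32.5% were called. Since shallow peaks vary more, the nearer peaks were also weighted to the members' mix of fragment totals, which gave 33.3%. The rate rose gradually with distance. Peaks at 50 to 100 kb were called at 37.3% (35.8% at equal fragments). Peaks at 100 to 300 kb were called at 41.3% (40.6%), a little below the interval of the members. From that range to the members, at equal fragments, calls rose mainly in epiblast-like nuclei, from 8.60% to 16.9%. In anterior streak-like nuclei they went from 6.51% to 7.32%, and in the other classes they were level or lower. In the strata from 30 up to 960 fragments the members' percentage was 22.3%, 42.1%, 51.9%, 54.6% and 42.4%, and that of nearer peaks 18.8%, 31.5%, 39.7%, 39.5% and 31.2%. At 960 fragments and over, 15.7% of 51 members and 7.94% of nearer peaks were called.

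A measure with no threshold gave the same order. Tau, which is 0 for a peak equal in all 8 classes and 1 for a peak seen in 1 class only, had a median of 0.667 (0.660 to 0.673) in members. It was 0.335 under 1 kb, 0.571 at 1 to 10 kb, 0.598 at 10 to 50 kb, 0.621 at 50 to 100 kb and 0.646 at 100 to 300 kb. With nearer peaks weighted to the members' fragment strata, the means were 0.665 for members and 0.603, 0.607, 0.614, 0.628 and 0.646 for the other ranges, so the gap to promoters was smaller at equal fragments, and the order stayed. Among the called members, 1758 were called in 1 class, 119 in 2, 14 in 3 and 1 in 4.

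Among the 8 classes the largest excess was in epiblast-like nuclei. There, 724 members (16.9%, 15.8% to 18.0%) were called, against 4.22% of all peaks tested and 4.02% of nearer peaks at equal fragments, a ratio of 4.20. The percentage rose with distance, from 1.79% under 1 kb through 2.97%, 3.66%, 5.36% and 8.88% to 16.9%. At equal fragments the values were 3.27%, 2.80%, 3.36%, 5.10%, 8.60% and 16.9%, so the rise began beyond 10 kb. All classes were read from 1 peak list, and epiblast-like nuclei were the largest class (4305 of 12796), so peaks open in a small class alone may be missing from the list, above all among peaks open in few nuclei. Among nearer peaks, which were open in more nuclei (median 1.38% against 0.852%), 8.86% were called in visceral endoderm-like and 3.97% in epiblast-like nuclei. The part of the shared list in the percentages was not tested. Within the members the epiblast-called percentage was 14.4% at 300 to 400 kb, 17.2% at 400 to 600 kb, 21.5% at 600 to 1000 kb and 27.1% of the 96 members at 1000 kb and over. Members in a gene were called at 14.9% and members outside genes at 17.8%. Epiblast-called members were open in a median of 2.13% of epiblast-like nuclei, and their median fold was 4.28.

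Anterior streak-like nuclei were next, with 314 members (7.32%), against 3.52% of all peaks and 4.01% of nearer peaks at equal fragments. This class was named from 1 joint marker list, for the anterior streak, the node and the definitive endoderm. In embryonic mesoderm-like nuclei 247 members (5.76%) were called, against 4.65% of all peaks and 4.86% of nearer peaks at equal fragments. Against the nearest distance ranges there was no excess, since peaks at 100 to 300 kb were called at 7.82% (7.64% at equal fragments) and peaks at 50 to 100 kb at 6.53% (6.20%). In primitive streak-like nuclei the count was 53 (1.24%), against 0.844% and 0.879%, and against 1.37% (1.33% at equal fragments) at 100 to 300 kb. For anterior streak the 100 to 300 kb value was 6.47% (6.51%), just under the interval of the members, 6.56% to 8.14%.

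In the extraembryonic classes the members were called at or below the rate of other peaks. In visceral endoderm-like nuclei 214 members (4.99%, 4.36% to 5.68%) were called, against 8.78% of all peaks and 8.53% of nearer peaks at equal fragments, a ratio of 0.585. By distance this percentage was 5.20% at 300 to 400 kb, 5.10% at 400 to 600 kb and 3.64% at 600 to 1000 kb. It was 9.38% of the 96 members at 1000 kb and over, so the farthest members were not lower. In extraembryonic ectoderm-like nuclei 268 of all members tested (6.25%, 5.54% to 7.01%) were called, against 7.31% and 7.51%. The counts were 132 (3.08%) in extraembryonic mesoderm-like nuclei, against 3.6% and 3.67%, and 90 (2.10%) in haemato-endothelial progenitor-like nuclei, against 3.17% and 3.10%. Peaks at 100 to 300 kb were called in extraembryonic ectoderm-like nuclei at 6.27% (6.25% at equal fragments), so the members were not lower than these. In visceral endoderm-like nuclei that range had 7.11% (6.88%). In extraembryonic mesoderm-like nuclei it had 5.17% (4.997%), and in haemato-endothelial progenitor-like nuclei 3.55% (3.39%). The median fold of the called members was 8.05 in extraembryonic ectoderm-like, 6.97 in visceral endoderm-like, 5.30 in haemato-endothelial progenitor-like and 4.50 in extraembryonic mesoderm-like nuclei. It was also 4.50 in embryonic mesoderm-like nuclei.

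**Figure D4:**
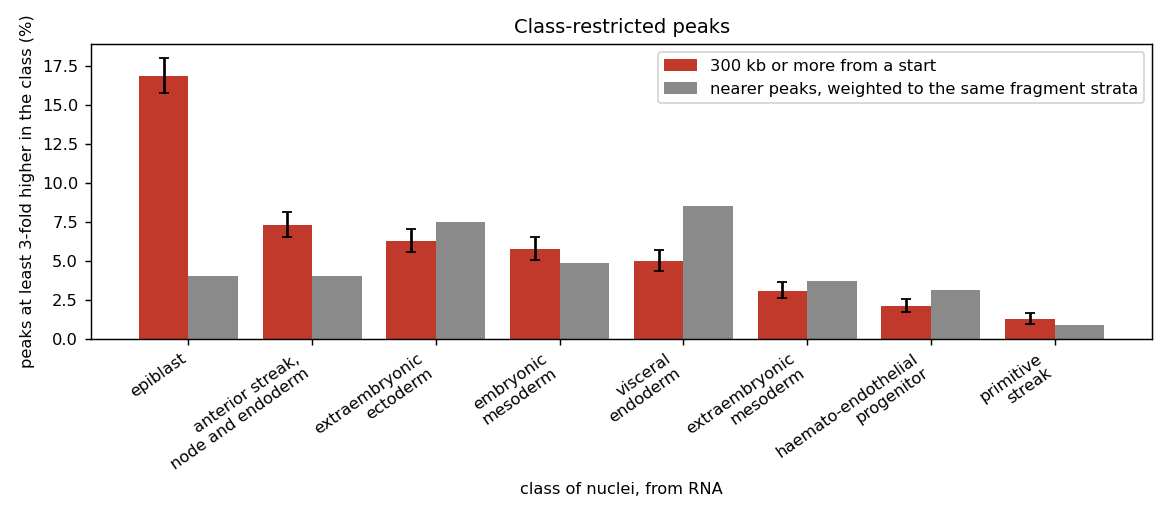
Percent of peaks at least 3-fold higher in a class than in all other nuclei, for members (red, with exact binomial intervals that cover sampling of peaks only) and for nearer peaks weighted to the members' fragment strata (grey). Epiblast-like nuclei show 16.9% against 4.02%, and visceral endoderm-like nuclei 4.99% against 8.53%.

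The epiblast-like over visceral endoderm-like ratio was 12.2 in the 724 epiblast-called members, 2.54 in the 2397 members called in no class and 1.52 in the 3572 members not called in epiblast. The calls fix part of each value: leaving out epiblast-called members lowers the ratio, and the members called in no class also lack those called in visceral endoderm. By the class of highest CPM, epiblast-like led for 27.7% of members and 14.5% of nearer peaks, and visceral endoderm-like for 6.81% and 15.4%. Anterior streak-like led for 18.3% of members and 11.3% of nearer peaks.

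The most restricted members in each class, by fold over all other nuclei among those with at least 20 fragments in the class, were as follows. All coordinates are in mm10. In epiblast-like nuclei chr1:48652364-48653313, 591 kb from C230029F24Rik, stood at 2.36 CPM and was 12.3-fold (7.09 to 22.7) higher than elsewhere. It was open in 2.16% of epiblast-like nuclei, was next highest in primitive streak-like nuclei at 0.817 CPM, and had no count in visceral endoderm-like or extraembryonic ectoderm-like nuclei. The second, chr8:51595994-51596884, 418 kb from Gm32975, was 12.2-fold (7.41 to 21.4) higher at 2.69 CPM. Both lay outside genes, and both were low per nucleus.

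In anterior streak-like nuclei chr5:56263784-56264685, 1453 kb from 4932441J04Rik and outside genes, reached 6.30 CPM and 23.6-fold (15.03 to 37.8), with no count in visceral endoderm-like nuclei. The peak chr1:68466115-68467038 lay inside Erbb4, a receptor for neuregulins, 442 kb from the start of Gm15671. It reached 14.2 CPM in anterior streak-like nuclei, where 12.3% of nuclei were open, and stood at 0.814 CPM in the epiblast, which made it 20.9-fold (15.6 to 28.2) higher than in all other nuclei. Erbb4 RNA was also highest there, at 57.2 RNA CPM, with 25.9 in epiblast-like and 0.741 to 5.60 in the other classes.

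In embryonic mesoderm-like nuclei chr14:107531486-107532507, 479 kb from Gm48977, reached 5.55 CPM and 22.4-fold (14.0 to 36.8). The peak chr8:17178816-17179751 inside Csmd1, a large membrane protein with complement-control domains, reached 4.37 CPM and 20.5-fold (12.5 to 34.8). Csmd1 RNA was low in every class, at 0.917 to 6.86 RNA CPM, and was highest in primitive streak-like nuclei. Both peaks were next highest in extraembryonic mesoderm-like nuclei, at 1.32 CPM each.

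In extraembryonic mesoderm-like nuclei chr5:54989272-54990194, 639 kb from Gm10440, reached 7.90 CPM and 16.3-fold (10.1 to 25.7). It lay in the same gap between Gm10440 and 4932441J04Rik as the anterior streak-like peak above. The peak chr8:128034181-128034648 lay between Pard3, a cell polarity gene, and Nrp1, a receptor for semaphorins and vascular endothelial growth factor, 325 kb from Nrp1. It stood at 11.2 CPM in extraembryonic mesoderm-like, 3.22 in haemato-endothelial progenitor-like and 2.89 in embryonic mesoderm-like nuclei, and at 0.102 to 0.899 CPM in the other 5, for a fold of 12.6 (8.78 to 17.8). Nrp1 RNA had the same first 3 classes in the same order, at 439, 355 and 127 RNA CPM, and 3.14 to 56.0 in the others.

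In haemato-endothelial progenitor-like nuclei, which form the first blood and vessels, chr14:87754496-87755410 reached 20.1 CPM and 51.0-fold (33.4 to 78.3). It lay 338 kb from Tdrd3, a Tudor-domain gene whose RNA did not lead in that class (115 RNA CPM there, 46.7 to 164 over all 8). The peak chr16:6889066-6890015 lay inside Rbfox1, a splicing regulator, and reached 20.9 CPM and 41.0-fold (27.8 to 60.2). Rbfox1 RNA did not lead in that class: it was 38.2 RNA CPM there, and 311 in primitive streak-like nuclei.

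In visceral endoderm-like nuclei chr6:80703946-80704855, inside Lrrtm4 (a synaptic adhesion protein) and 681 kb from Gm4409, reached 13.6 CPM and 26.4-fold (19.5 to 36.4), and 10.4% of the nuclei were open. Lrrtm4 RNA was at 0.509 RNA CPM in that class and at 0.342 to 3.79 elsewhere. The peak chr5:77871105-77872009, 385 kb from Gm42761 in the long gap before Adgrl3, reached 14.99 CPM and 25.3-fold (18.9 to 34.2), with at most 0.408 CPM in another named class. Adgrl3 RNA was at 0.764 RNA CPM in visceral endoderm-like nuclei, lower than in the other 7 classes (1.14 to 41.3). The other nuclei in these folds include the 2248 unnamed nuclei.

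The highest folds of all members were in extraembryonic ectoderm-like nuclei. The peak chr10:46615055-46615904, 314 kb from Gm35430 and outside genes, reached 17.2 CPM and was open in 13.0% of these nuclei, against 0 to 0.403 CPM in the other 7 classes, for a fold of 81.2 (53.3 to 129). The peak chr18:87423645-87424191, 332 kb from Gm5096, reached 5.32 CPM and 78.7-fold (37.6 to 190), with no count in 5 of the other 7 classes. The neighbouring genes had few UMIs: Gm5096 and Gm47568 had 0 in the whole library, Gm35430 had 8, and Cbln2, a synaptic organizer, had 111.

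In primitive streak-like nuclei the folds were the smallest. The peak chr2:178785141-178786012, 355 kb from Cdh26 (a cadherin), reached 10.0 CPM and 5.09-fold (3.68 to 6.92), with 5.28 CPM in embryonic mesoderm-like nuclei. The peak chr4:23601430-23602356, 332 kb from Gm28448, reached 6.94 CPM and 4.78-fold (3.22 to 6.92), with 3.19 CPM in embryonic mesoderm-like nuclei. Both were open in each of the 8 classes.

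**Figure D5:**
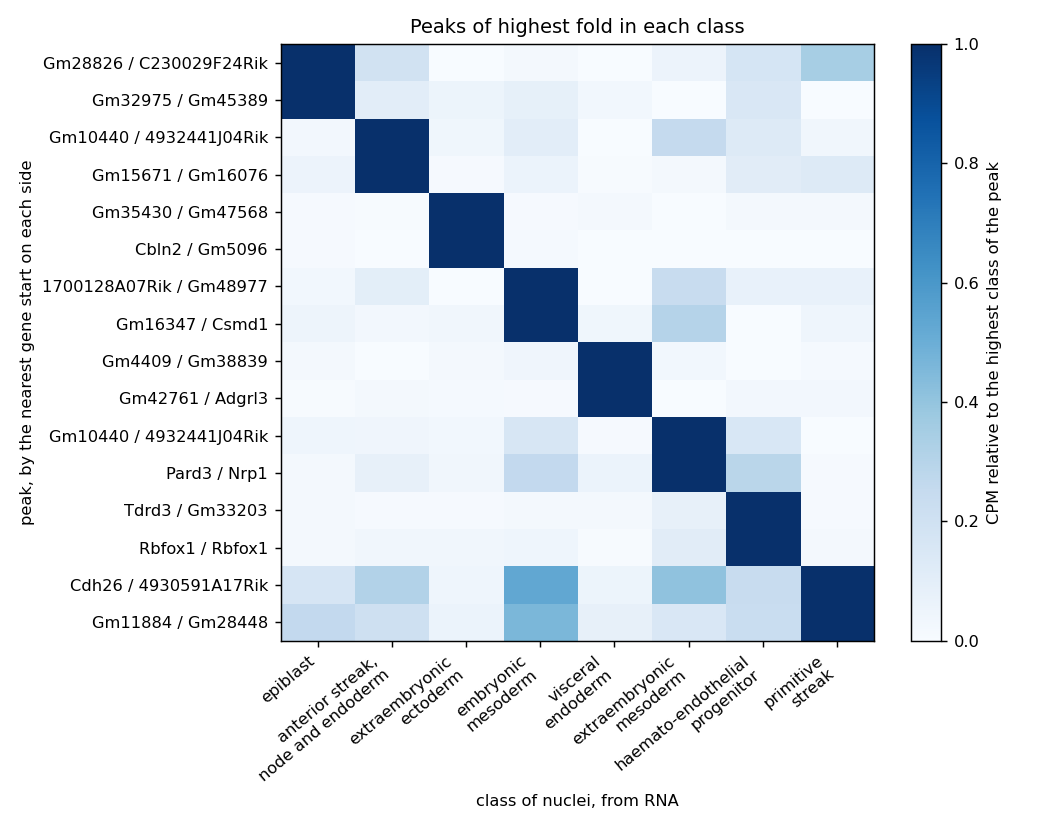
CPM of the 16 named restricted members in each class, relative to the highest class of the same peak (0 white, 1 dark blue); each peak is labelled by the nearest gene start on each side. Most are dark in 1 class only, while the primitive streak-like peaks at the bottom are also shaded in embryonic mesoderm-like nuclei.

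Members came in stretches between neighbouring starts. They filled 434 such stretches with a median of 7 members, and 171 stretches with 10 or more held 3230 of them, while 44 stretches held 1. Of 170 stretches with at least 10 testable members, 152 had a higher summed level in epiblast-like than in visceral endoderm-like nuclei and 18 the reverse. The 724 epiblast-called members lay in 281 stretches, and 109 stretches held 3 or more of them. Groups of 3 or more lay in 38 stretches for the 314 anterior streak-called members and in 28 for the 268 extraembryonic ectoderm-called members. They lay in 28 for the 247 embryonic mesoderm-called, 23 for the 214 visceral endoderm-called and 11 for the 132 extraembryonic mesoderm-called members. They lay in 3 for the 90 haemato-endothelial progenitor-called and 3 for the 53 primitive streak-called members. Such counts depend on the number of called members, which differed between classes.

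The stretch with the most members, 52, lay within Pde4d, which encodes a phosphodiesterase that breaks down cyclic AMP, between its starts on chromosome 13. It stood at 179 CPM in anterior streak-like nuclei, 122 to 147 in the mesoderm, streak, blood and epiblast classes, 79.7 in visceral endoderm-like and 50.2 in extraembryonic ectoderm-like nuclei. Pde4d RNA was also lowest in these last 2 classes, at 48.0 and 10.6 RNA CPM, and was 99.97 to 309 in the other 6. Of its 52 members, 18 (34.6%) were called, close to the 32.5% of all peaks tested. In anterior streak-like nuclei 6 of the 52 were called and in epiblast-like nuclei 1, against 3.52% and 4.22% of all peaks tested.

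The gap between Sall1, a zinc finger repressor, and Tox3, an HMG-box factor, on chromosome 8 held 44 members over 1304 kb. It stood at 140 CPM in anterior streak-like, 116 in embryonic mesoderm-like and 105 in haemato-endothelial progenitor-like nuclei, and at 31.1 in visceral endoderm-like nuclei. This gap held the most anterior streak-called members of any stretch, 8 of 44, against 3.52% of all peaks tested in that class. RNA of both flanking genes was highest in the same class, with Sall1 at 123 and Tox3 at 219 RNA CPM there and at 23.8 and 4.53 in visceral endoderm-like nuclei.

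Between Trpc7 (a cation channel) and Spock1 (a matrix proteoglycan) on chromosome 13 lay 49 members, 40 of them in a gene. The level was highest in embryonic mesoderm-like nuclei, at 185 CPM, whereas Spock1 RNA was highest in anterior streak-like nuclei at 19.4 RNA CPM and was 1.21 in embryonic mesoderm-like nuclei. Over all peaks tested 32.5% were called, with 4.65% in embryonic mesoderm-like and 4.22% in epiblast-like nuclei. Between Brinp1 and Cdk5rap2 on chromosome 4 lay 41 members, 20 of which (48.8%) were called, with 6 each in embryonic mesoderm-like and epiblast-like nuclei. The extraembryonic ectoderm-like and visceral endoderm-like levels there were 19.5 and 24.8 CPM, against 49.5 to 96.3 in the other 6 classes. Brinp1, a gene of the developing nervous system, had 1.77 and 1.48 RNA CPM in those 2 classes and 23.4 to 108 in the others.

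The gap between Abca13, a lipid transporter, and Vwc2, a secreted antagonist of bone morphogenetic proteins, on chromosome 11 held 44 members. Of these, 11 were epiblast-called, the most in number of any stretch, while a stretch within Lrp1b had 10 of 30. Over all peaks tested, 4.22% were epiblast-called. The Abca13 to Vwc2 gap stood at 70.9 CPM in epiblast-like and 60.8 in extraembryonic ectoderm-like nuclei, and at 16.9 in haemato-endothelial progenitor-like nuclei. Both flanking genes were low in RNA, with Vwc2 at 0 to 1.26 and Abca13 at 0 to 1.26 RNA CPM over the classes.

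Some stretches were mostly restricted, and those with the highest share were led by extraembryonic ectoderm. Over all peaks tested 32.5% were called, with 7.31% in extraembryonic ectoderm-like, 4.22% in epiblast-like and 3.52% in anterior streak-like nuclei. Between Gm597 and Gm9898 on chromosome 1, 8 of 10 members (80.0%) were called, 5 of them in extraembryonic ectoderm-like nuclei, where the stretch stood at 40.1 CPM against 3.17 to 10.5 elsewhere. Between Tpm3-rs7 and 4930524C18Rik on chromosome 14, 11 of 14 members (78.6%) were called, 7 in extraembryonic ectoderm-like and 4 in epiblast-like nuclei, at 87.7 and 19.1 CPM. Between Snx16, a sorting nexin, and Gm10745 on chromosome 3, 10 of 14 (71.4%) were called, 5 in extraembryonic ectoderm-like, 3 in anterior streak-like and 2 in epiblast-like nuclei. Among these flanking genes only Snx16 had much RNA, with 50.9 RNA CPM in extraembryonic ectoderm-like nuclei and 17.4 to 34.6 in the others.

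Flanking genes were sorted by 2 lists of symbol patterns for gene families, which leave out genes of similar function under other names. Among those left out are Lsamp, Nrxn3, Adgrl3, Nrp1 and Slit2 for the second list and the transcription factor genes Isl1 and Nr4a2 for the first. A flank in the first list, the developmental regulators (families such as Sox, Fox, Sall and Tbx), was found for 7 stretches with 119 members. In these, 42.0% of members were called, and 3.36% (4 of 119) in epiblast, against 32.5% and 4.22% of all peaks tested. The epiblast-like level was 1.04 times the visceral endoderm-like level, a value pooled over stretches that differed. From Sall1 to Tox3 (44 members) the levels were 72.0 and 31.1 CPM, and from Gm34225 to Sox6 (30 members) 45.9 and 70.7 CPM. The epiblast value depended on the list: with the stretch from Itga1 to Isl1 added, after the data were seen, it was 8 of 138 (5.80%), and with that from Kcnj3 to Nr4a2 as well, 16 of 160. Stretches that matched the second list, of adhesion, guidance and neuronal receptor families (such as Cdh, Pcdh, Robo and Lrrtm), numbered 55, with 688 members, of which 41.3% were called and 20.2% in epiblast, with a ratio of 2.06. The other 372 stretches had 44.7%, 16.7% and 2.13. The first group is small, the lists are incomplete, and members of a stretch share their surroundings.

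The 1115 members that overlapped a protein-coding gene lay in 115 such genes. After Pde4d (52 members), the most were in Lsamp (37, a neuronal adhesion protein), Nrxn3 (33, a neurexin), Wwox (31, an oxidoreductase), Lrp1b (30), Robo2 (30, a Slit receptor) and Gpc6 (28, a glypican). In Lsamp the members stood at 55.2 CPM in epiblast-like and 15.5 in visceral endoderm-like nuclei, and its RNA at 62.3 and 3.57 RNA CPM. In Dlg2, a synaptic scaffold with 24 members, the levels were 50.7 and 12.7 CPM and the RNA 122 and 2.29 RNA CPM. Wwox differed: its members were at 63.3 and 29.5 CPM, while its RNA was nearly level at 169 and 170 RNA CPM. Robo2 ran the other way between these 2 classes, with members at 43.4 CPM in epiblast-like and 54.9 in visceral endoderm-like nuclei and RNA at 11.5 and 15.2 RNA CPM. Its RNA was highest in extraembryonic mesoderm-like nuclei, however, at 114 RNA CPM, where its members stood at 23.6 CPM. The members in Nrxn3 were highest in epiblast-like nuclei at 82.6 CPM. Nrxn3 RNA was 12.5 RNA CPM there and highest in haemato-endothelial progenitor-like nuclei at 118.

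The nearest gene seldom shared the class of a restricted member. Where the nearest gene by start had at least 50 UMIs, its RNA was highest in the same class for 184 of 1017 restricted members (18.1%, 15.8% to 20.6%). The percentage was 50.03% under 1 kb, 34.2% at 1 to 10 kb, 26.7% at 10 to 50 kb, 20.5% at 50 to 100 kb and 19.4% at 100 to 300 kb, so the value at 300 kb and over did not differ from that at 100 to 300 kb beyond its interval. For epiblast-called members it was 23.4% (19.2% to 28.1%), beside 20.4% of all 1017 restricted members whose nearest gene was highest in epiblast. Each value after "beside" is such a percentage over restricted members of every class, so it includes the called members themselves. For nearer peaks it is taken over all restricted nearer peaks. For anterior streak-called members the match was 27.4%, beside 20.6%, and for extraembryonic ectoderm-called members 15.3% (9.83% to 22.2%), beside 6.59%. For haemato-endothelial progenitor-called members it was 24.4% (12.9% to 39.5%), beside 13.7%. In the mesoderm and streak classes it was 7.50% to 10.3% on 25 to 107 members, beside 8.55% to 14.7%. For visceral endoderm-called members it was 3 of 121 (2.48%, 0.514% to 7.07%), beside 6.69%, whereas visceral endoderm-called nearer peaks had 37.6%, beside 22.3%.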

How the data were processed

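The deposited matrix held whole-number counts, not normalized, of RNA UMIs per gene and of accessibility per peak, written by cellranger-arc 2.0.0 per the file headers. Per the submitters' processing notes the tool was Cell Ranger ARC 2.0.0 and the build mm10. For the peak caller and further filters, the sources used here give nothing. The matrix summed to 182201512 UMIs and 273131304 peak counts. The gene and peak positions (a unit of their own, in the deposited table) gave the distances. No column of per-sample values was left unused.

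Nuclei with at least 1000 UMIs, 500 genes, 1000 peak counts and at most 20% mitochondrial UMIs were kept, less 1100 doublets (Scrublet marked 1154 of all 15341 barcodes, 7.52%), and clustered on RNA alone with scanpy 1.11.5 and Leiden at resolution 1. Clusters were named from marker lists. Each pair of counts in a nucleus was taken as 1 fragment, with an odd count rounded up, since most counts were even. Intervals are at 95%, exact binomial for shares and fold ratios of fragments and by ranks over peaks for medians. No test was run, because each assay had 1 library. The calling rule was tested on simulated data for 20000 peaks: it recovered 94.0% of 200 peaks with a 4-fold class difference, 99.0% of 200 with 8-fold, and called 0.133% of unchanged peaks. These peaks took their fragment totals from peaks at all distances, not from the members, whose median was 113 fragments. Counting error was the only noise, so the recovery at the members' depth in small classes was not measured.

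Named regions were the 3 most open members, the 2 with the highest fold in each class on 20 or more fragments, the 3 farthest from a start, the 3 nearest to the limit on each side, the 5 stretches with most members and the 3 with the highest share called among those with 10 or more. The members, lists and rules were chosen with earlier results of these data known. Sequences came from RefSeq GRCm38.p6 tables.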

Additional observations from a re-analysis of the deposited data

How the results depend on the processing

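No alternative reversed the comparison of members with nearer peaks in openness, tau, calls in any class or calls in epiblast. Nor did any reverse that of epiblast-like with visceral endoderm-like shares. Calls in the other classes were not compared under these settings. For embryonic mesoderm and primitive streak, the excess over all nearer peaks was absent against peaks at 100 to 300 kb. In the order of shares, 5 of 7 neighbouring pairs of classes changed places under some setting. With a limit of 200 or 500 kb, members were 3.96% or 0.621% of autosomal peaks. The openness ratio to nearer peaks was 0.635 at 200 kb, 0.838 against peaks 50 to 300 kb from a start and 0.606 by counts per kb. The epiblast-like over visceral endoderm-like ratio of shares was 1.76 at 200 kb, 2.44 at 500 kb, 2.03 without members in genes, 1.63 with doublet calls kept, 2.13 and 1.99 at Leiden resolutions 0.5 and 2, and 2.04 without the 1% of members with most counts. Settings chosen after seeing the data gave 2.16 (relative to counts in peaks under 1 kb), 2.21 (nuclei with 10000 to 20000 peak counts) and 1.74 (with the unnamed cluster of 11 raised markers added to visceral endoderm-like nuclei).

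The percent of members restricted was 40.9% with the stricter depth filter, 37.3% with doublet calls kept, 40.4% and 40.2% at resolutions 0.5 and 2, 71.9% at 2-fold, 19.8% at 5-fold, 50.02% with 100 fragments and 47.4% by share of nuclei. The ratio to nearer peaks at equal fragments was 1.23 with doublet calls kept, 1.27 and 1.25 at the 2 resolutions, 1.25 at 2-fold, 1.20 at 5-fold, 1.41 by share of nuclei and 1.17 against peaks 50 to 300 kb away. For epiblast that ratio was 3.53 at 200 kb, 4.91 at 500 kb, 4.51 with the stricter filter, 4.84 with doublet calls kept, 4.56 at resolution 2, 2.73 at 2-fold, 6.77 at 5-fold, 4.55 with 100 fragments and 2.58 against peaks 50 to 300 kb away. Counts moved by over 1.5 times at 200 kb (3892 called, 1212 in epiblast), at 500 kb (627 and 285), at 2-fold (3083 and 1413) and at 5-fold (848 and 235), against 1892 and 724.

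Median tau was 0.676 at 500 kb, 0.643 with the stricter filter, 0.640 with doublet calls kept, 0.676 and 0.682 at resolutions 0.5 and 2, and 0.680 with 100 fragments. The nearest gene matched for 24.4% at resolution 0.5. The cause of these shifts was not tested. Members with few fragments allow a class call only for large folds. Both assays were read from the same nuclei, but no comparison between replicates was possible because each assay had 1 library.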

Other observations

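Nuclei that the marker rules left unnamed also differed in their share of counts in start-distant peaks. Their leading lists rested on few markers or were close to another list, so they are given by cluster and not as cell types. The lowest share of any cluster was 0.249% (0.243% to 0.255%), in 322 nuclei whose leading list was the ectoplacental cone and giant cell list with 2 markers raised. Another 13 nuclei with the same leading list, also on 2 markers, stood at 0.333% (0.305% to 0.363%). A cluster of 149 nuclei with 6 parietal endoderm markers raised stood at 0.419% (0.408% to 0.429%). A cluster of 130 nuclei, led by 1 germ cell marker and followed by the primitive streak list, was at 0.635% (0.622% to 0.649%), beside 0.626% in primitive streak-like nuclei. The other 3 clusters were at 0.561%, 0.574% and 0.581%. In the first of these all 11 visceral endoderm markers were raised and the anterior streak list was nearly tied, in the second 3 visceral endoderm markers were raised, and in the last 1 was. The last held 1753.5 UMIs per nucleus at the median. The second, of 106 nuclei, held 25413.5, and its mean of 46820 peak counts per nucleus stood beside 22938 in the next highest cluster.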
